A study of Mus musculus with 16 samples.

Results

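The comparison set naive CD8+ T cells against naive CD4+ T cells that both carried little CD5 on their surface. Its members were the 4 CD4 CD5lo and the 4 CD8 CD5lo libraries, 8 of the 16 in the series, taken by the names of their columns and paired by replicate number. All came from lymph nodes of C57BL/6 mice without any treatment named in the labels. Every group shared 1 gate for naive cells (no CD25, high CD62L, low CD44), and within the CD4+ or the CD8+ cells the third with the lowest CD5 was collected. The other 8 libraries held the equally large part with the highest CD5 (CD5hi) and were used only to ask whether a difference between the lineages was the same at high CD5. The labels call the 4 replicates of each group biological and do not give the age of the mice or the number of mice behind a library.

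Mature T cells of the main alpha-beta type leave the thymus as CD4+ or CD8+ cells. CD4 and CD8 are coreceptors: they bind MHC class II and class I molecules, respectively, and bring the kinase Lck to the T cell receptor. The choice between the lineages is held by opposing transcription factors, among them ThPOK (gene Zbtb7b) in CD4+ cells and Runx3 in CD8+ cells, and each represses genes of the other lineage. CD5 is an inhibitory receptor whose surface level on a naive T cell reflects how strongly that cell recognises self ligands in the thymus and periphery.

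The 8 libraries held 71447252 to 93418385 counts, with 14984 to 15991 genes detected in each. Levels are given as CPM, counts scaled to a common library size after TMM normalisation, and a change is the log2 of CD8 over CD4 from the paired fit, with its standard error (SE). Where 4 values are followed by 4 others, CD4 replicates 1 to 4 come first and CD8 replicates 1 to 4 second. Expression separated first by lineage: the first principal component held 56.6% of the variance and parted the 4 CD4 from the 4 CD8 libraries, and the second (20.7%) set replicate 3 of both groups apart from the other 6 libraries. Replicate 3 of both groups also held B cell RNA. The summed level of 17 B cell markers was 399 CPM in CD4 CD5lo replicate 3 and 622 CPM in CD8 CD5lo replicate 3, against 22.6 to 40.7 CPM and 38.5 to 74.7 CPM in the other replicates, and no marker of this list was at 0 in all 8 libraries. Replicate 3 also held transcripts of the other lineage: Cd4 was at 27.1 CPM in CD8 CD5lo replicate 3 (0.566 to 2.501 CPM in the other CD8 replicates), and Cd8a at 11.5 CPM in CD4 CD5lo replicate 3 (2.04 to 5.48 CPM in the others). Results are therefore also given without replicate 3 of both groups. In sorted bulk cells, a lower level cannot be told apart as fewer cells that express a gene or less RNA per cell.

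Of 13120 genes tested, 2185 were higher in CD8 cells (16.7%) and 2242 were lower (17.1%), at an adjusted p under 0.05 (edgeR quasi-likelihood F test with replicate as a block). At least 2-fold changes numbered 612 higher and 427 lower, and 58.7% of all calls were of genes that differed less than 1.5-fold. Of the 4427 genes called, 4320 differed in the same direction in all 4 pairs, and 2747 had CD4 and CD8 values that did not overlap. Both were counted among called genes only, and the shares over all genes tested are not given. Uncalled genes can do the same: Il2rg differed alike in all 4 pairs, and the groups of H2-Q4 did not overlap. A paired test favours genes whose pairs agree, so these counts are no separate support for the calls. Without the block the calls fell to 1228 higher (9.36%) and 1186 lower (9.04%), while those of at least 2-fold were 522 and 370. Without replicate 3 the paired fit called 1630 higher (12.4%) and 1590 lower (12.1%). Of the 4427 genes, 3149 (71.1%) were called again in the same direction without replicate 3 and 0 in the opposite direction. The median log2 change over all genes tested was -0.0046, and the counts and medians of the gene lists stand against this median and the 16.7 and 17.1% of all genes. List counts without replicate 3 stand against 12.4 and 12.1% of all genes, and those without the block against 9.36 and 9.04%.

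**Figure D1:**
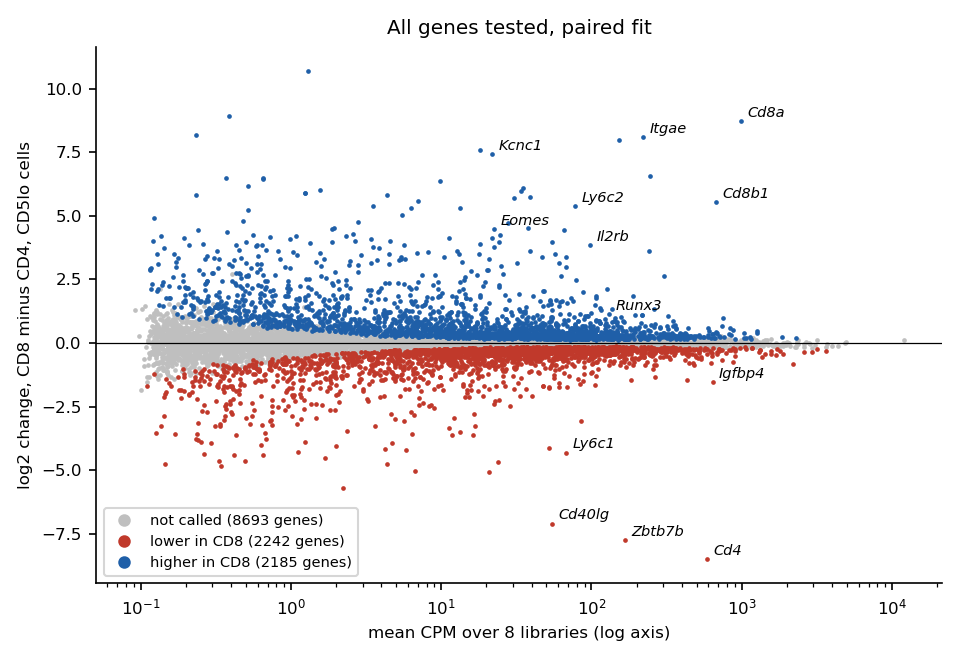
Log2 change between CD8 and CD4 CD5lo cells (vertical axis) against the mean level over the 8 libraries in CPM (horizontal log axis) for the 13120 genes tested, 1 point per gene. Blue points are the 2185 genes called higher and red points the 2242 called lower in CD8 cells, and Cd8a, Cd8b1, Cd4, Zbtb7b and Cd40lg lie far from 0 at high levels.

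The coreceptor genes checked the sort. Cd8a (alpha chain of CD8, chr6:71373427-71379173 of GRCm38, plus strand) was at 2.79, 2.04, 11.5 and 5.48 CPM in CD4 CD5lo replicates 1 to 4 and at 2131, 1969, 1769.7 and 2023 CPM in the CD8 replicates, a log2 change of 8.72 (SE 0.45, adjusted p = 1.41e-06). Cd8b1 (beta chain, chr6:71322788-71337494, plus strand) was at 29.6, 25.7, 30.4 and 27.1 CPM in CD4 and 1455, 1331, 1195 and 1318 CPM in CD8 libraries (log2 5.56, SE 0.09, adjusted p = 6.27e-09). Cd4 (chr6:124864692-124888221, minus strand) was at 1179, 1078, 1126 and 1264 CPM in CD4 libraries and at 0.566, 2.501, 27.1 and 1.13 CPM in CD8 libraries, a log2 change of -8.49 (SE 0.89, adjusted p = 9.85e-05). No library of one lineage came near the other for any of the 3 genes. In log2 terms, without replicate 3 the change of Cd4 was -9.77 and that of Cd8a 9.29.

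The promoters of the lineage genes are shown because the factors that hold the lineages bind DNA there and elsewhere. RefSeq on GRCm38.p6 gave windows for Cd8a and, at a pair of starts, for Zbtb7b, while Cd4, Cd8b1 and Itgae are named only. Each window ran from 250 bases before to 50 bases after the start of transcription. Capitals mark matches to the core letters of 3 factor families, searched on both strands: TGTGGT or TGCGGT for RUNX, TGATAA or AGATAA for GATA, and CTTTGA or CTTTGT for TCF/LEF. A TCF/LEF match can share its last letters with the start of a RUNX match.
Cd8a, chr6:71373177-71373476, plus strand: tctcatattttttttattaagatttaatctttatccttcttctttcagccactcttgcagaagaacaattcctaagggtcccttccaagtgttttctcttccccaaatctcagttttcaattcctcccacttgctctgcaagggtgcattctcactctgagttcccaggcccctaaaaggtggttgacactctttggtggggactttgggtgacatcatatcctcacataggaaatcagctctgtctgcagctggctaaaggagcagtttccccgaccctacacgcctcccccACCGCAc
Zbtb7b, upstream start, chr3:89393329-89393628, minus strand: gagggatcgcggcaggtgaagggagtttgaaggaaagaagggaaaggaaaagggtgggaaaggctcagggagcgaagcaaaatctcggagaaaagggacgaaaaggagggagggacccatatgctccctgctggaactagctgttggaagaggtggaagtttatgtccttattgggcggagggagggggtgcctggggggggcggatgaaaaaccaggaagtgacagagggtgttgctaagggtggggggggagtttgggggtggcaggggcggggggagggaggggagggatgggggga
Zbtb7b, downstream start, chr3:89387622-89387921, minus strand: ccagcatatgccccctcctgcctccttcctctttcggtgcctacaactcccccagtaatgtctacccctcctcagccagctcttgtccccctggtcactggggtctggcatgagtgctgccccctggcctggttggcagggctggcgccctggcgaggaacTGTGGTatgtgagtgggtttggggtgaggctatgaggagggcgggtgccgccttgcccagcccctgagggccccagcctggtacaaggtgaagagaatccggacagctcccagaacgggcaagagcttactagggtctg
The Cd8a window held 1 RUNX match and the Zbtb7b window at the downstream start held 1, while the upstream window had 0 matches to any of the 3 sets. A RUNX match was present in 21.4% of 12437 promoter windows of genes tested, in 23.5% of the windows of genes higher in CD8 cells and in 21.5% of those of genes lower. For GATA the shares were 10.8, 11.4 and 10.5%, and for TCF/LEF 24.4, 22.5 and 23.4%. The shares among called genes were thus within a few percentage points of those among all windows, and a match describes the letters only.

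ThPOK RNA was on the CD4 side and Runx3 RNA on the CD8 side. Zbtb7b (ThPOK, chr3:89377644-89394776, minus strand) was at 394, 285, 283 and 365 CPM in CD4 and 0.381, 1.08, 6.82 and 0.323 CPM in CD8 libraries (log2 -7.73, SE 0.69, adjusted p = 3.74e-05; -9.18 without replicate 3). The highest CD8 value was again that of replicate 3. Runx3 (chr4:135120652-135177990, plus strand) was at 66.6, 60.7, 106 and 99.6 CPM in CD4 and 139.6, 187, 191 and 196 CPM in CD8 libraries (log2 1.13, SE 0.11, adjusted p = 6.91e-05). Runx3 RNA was thus well above 0 in CD4 cells, and its groups did not overlap. Gata3, a factor needed for CD4+ cells that also serves helper type 2 genes, was at 67.2, 73.3, 88.5 and 81.6 CPM in CD4 and 29.6, 42.6, 40.7 and 37.02 CPM in CD8 cells (log2 -1.05, SE 0.07). Runx1, the other main RUNX factor of T cells, fell as Runx3 rose: it was at 129, 105, 135 and 129 CPM in CD4 and 44.97, 58.7, 53.3 and 55.7 CPM in CD8 libraries (log2 -1.22, SE 0.10, adjusted p = 1.83e-05).

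Of 12 regulators of the CD4 lineage tested, 3 were higher and 7 lower in CD8 cells, with a median log2 change of -0.23, and without replicate 3 the counts were 3 and 4. Beside Zbtb7b and Gata3, the lower ones were Bcl11b, Tcf7, Satb1, Lef1 and Tox, and the higher ones Myb, Tcf12 and Zbtb7a. Bcl11b, which maintains T cell identity, changed by -0.53 (SE 0.08), and Myb by 0.79 (SE 0.08). Ikzf1 was at 859, 949.8, 1018 and 982 CPM in CD4 and 802, 948, 894 and 869.97 CPM in CD8 libraries and did not pass the test (adjusted p = 0.155).

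Of 12 regulators of the CD8 lineage, 4 were higher (Eomes, Tbx21, Runx3, Id2) and 5 lower (Prdm1, Runx1, Ets1, Patz1, Bcl6), with a median of -0.02. Eomes, a T-box factor of effector and memory CD8+ cells, was at 2.06, 1.51, 2.65 and 1.503 CPM in CD4 and 57.004, 42.2, 39.4 and 33.6 CPM in CD8 libraries (log2 4.48, SE 0.15, adjusted p = 1.23e-07). Its relative Tbx21 (T-bet) was low in both, at 0.323, 0.247, 0.801 and 0.178 CPM and 2.22, 1.79, 3.38 and 1.08 CPM (log2 2.53, SE 0.20). Prdm1 (Blimp-1), a repressor that drives effector differentiation, was lower in CD8 cells by 1.81 (SE 0.10). Cbfb, the partner of all RUNX factors, was at 112, 109.7, 106 and 116 and 119, 125, 103 and 120.2 CPM and did not pass the test (adjusted p = 0.306).

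**Figure D2:**
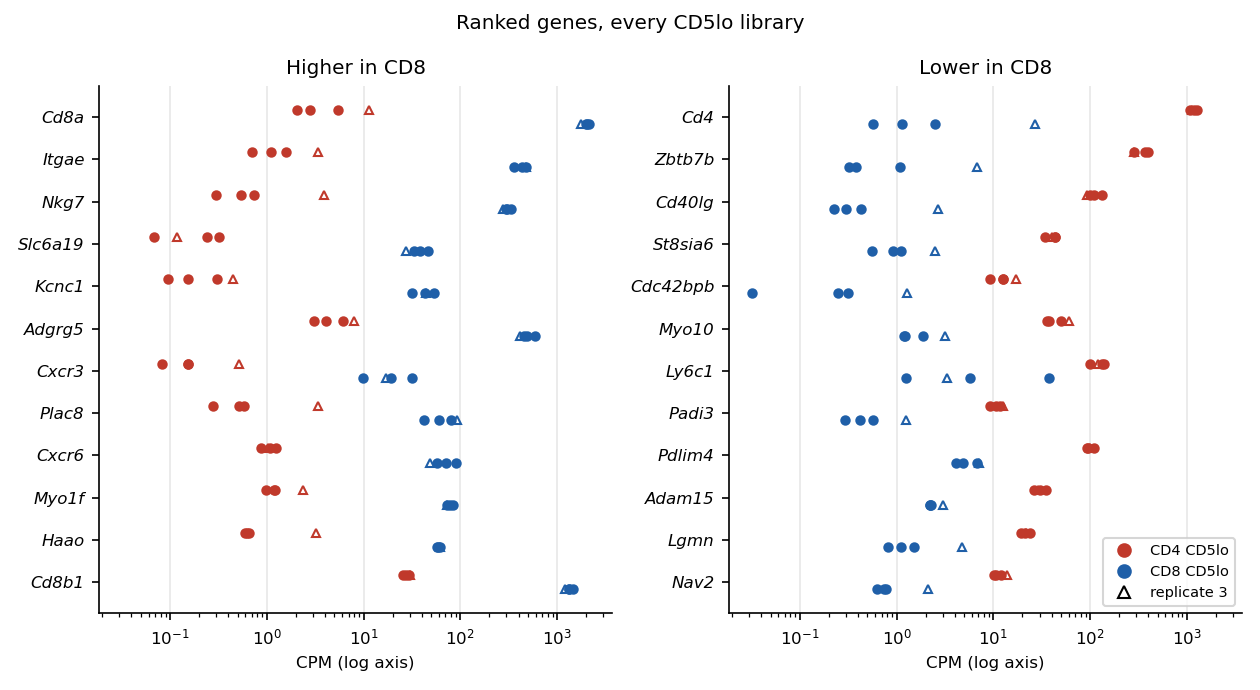
Level in CPM (horizontal log axis) of the 12 genes ranked by the largest change in each direction, in every CD4 CD5lo (red) and CD8 CD5lo (blue) library, with replicate 3 as open triangles. The groups do not overlap for any of these genes, by the ranking rule, and replicate 3 has the highest value of the low group for 21 of the 24 genes.

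The ranking took called genes whose groups were apart and whose mean reached 5 CPM. The 12 largest increases in CD8 cells were Cd8a, Itgae, Nkg7, Slc6a19, Kcnc1, Adgrg5, Cxcr3, Plac8, Cxcr6, Myo1f, Haao and Cd8b1, with log2 changes from 8.72 to 5.56. Itgae encodes the integrin alpha chain CD103, which binds E-cadherin, and was at 0.697, 1.096, 3.38 and 1.58 CPM in CD4 and 361, 474, 481 and 436 CPM in CD8 libraries (log2 8.11, SE 0.27). Nkg7, a protein of cytotoxic granules, was at 0.542, 0.301, 3.86 and 0.739 CPM and 333, 294, 278 and 307 CPM (log2 7.99, SE 0.50), and without replicate 3 its change was 9.21. Slc6a19, a transporter of neutral amino acids best known from intestine and kidney, was at 0.323, 0.0685, 0.118 and 0.242 CPM in CD4 and 46.3, 33.4, 27.7 and 37.9 CPM in CD8 cells. Kcnc1, a voltage-gated potassium channel, was similarly near 0 in CD4 cells (0.155, 0.0959, 0.447 and 0.306 CPM) and at 31.9, 43.4, 44.6 and 53.2 CPM in CD8 cells. Haao, an enzyme of tryptophan breakdown, was at 58.004, 61.6, 61.6 and 58.9 CPM in CD8 libraries, and its CD4 value was 3.26 CPM in replicate 3 against 0.603 to 0.658 CPM in the others. Adgrg5, an adhesion G protein-coupled receptor, and Myo1f, a class I myosin, were at 590.1, 456, 416 and 489 CPM and 83.2, 77.7, 72.9 and 72.5 CPM in CD8 cells, with changes of 6.57 and 5.76.

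The 12 largest decreases were Cd4, Zbtb7b, Cd40lg, St8sia6, Cdc42bpb, Myo10, Ly6c1, Padi3, Pdlim4, Adam15, Lgmn and Nav2, from -8.49 to -3.57. Cd40lg, the helper cell ligand that activates B cells through CD40, was at 101, 131, 92.9 and 109.96 CPM in CD4 and 0.224, 0.432, 2.702 and 0.301 CPM in CD8 libraries (log2 -7.09, SE 0.51; -8.47 without replicate 3). St8sia6, a sialyltransferase, was at 34.4, 43.1, 40.4 and 43.5 CPM and 0.552, 0.912, 2.51 and 1.12 CPM (log2 -5.08, SE 0.26). Cytoskeletal genes among these were Cdc42bpb, a kinase acting with CDC42 (log2 -5.04), and Myo10, a myosin of filopodia (log2 -4.66). Pdlim4, a PDZ and LIM domain protein, was at 110.2, 95.4, 99.9 and 91.9 CPM in CD4 and 4.09, 6.73, 7.12 and 4.85 CPM in CD8 cells, and Padi3, a peptidylarginine deiminase, at 11.6, 9.21, 12.6 and 10.6 CPM and 0.421, 0.573, 1.26 and 0.2904 CPM. Adam15, a membrane metalloprotease, and Nav2, a neuron navigator, changed by -3.63 and -3.57. Lgmn, a lysosomal protease, fell by 3.63, or by 4.23 without replicate 3. In 21 of these 24 genes (all but Slc6a19, Cxcr6 and Ly6c1), replicate 3 had the highest value in the group where the gene was low. Leaving out replicate 3 moved the fold of 11 genes, among those named that were called with all 4 pairs, by more than 1.5 times, each time away from 0: Cd4, Zbtb7b, Cd40lg, Cdc42bpb (-5.92), Lgmn, Nkg7, Plac8 (7.08), Cxcr3 (7.21), Haao (6.57), Cd79b and Xcr1 (4.69).

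Genes of cytotoxic function were more often higher than lower in CD8 cells, although the cells were gated as naive. Of 20 cytotoxic and effector genes tested, 13 were higher and 2 lower in CD8 cells, with a median of 1.01, and without replicate 3 they were 11 and 2 and without the block 9 and 2. The granzyme genes Gzmb and Gzmk did not pass the filter on low counts and were not tested. Ctsw, a protease of cytotoxic lymphocytes, was at 90.6, 82.3, 95.01 and 70.4 CPM in CD4 and 633, 482, 493 and 479.6 CPM in CD8 libraries (log2 2.63, SE 0.08). Cst7, an inhibitor of granule proteases, was at 5.76, 5.93, 6.98 and 7.45 CPM and 60.6, 53.4, 49.2 and 68.2 CPM (log2 3.15, SE 0.09). Prf1, which encodes perforin, the pore former of cytotoxic granules, was at 25.2, 21.4, 26.01 and 39.4 CPM and 72.2, 77.2, 72.9 and 95.7 CPM (log2 1.53, SE 0.09). Gzma, a granzyme gene, was at 1.69, 2.08, 1.39 and 1.25 CPM in CD4 and 3.46, 3.16, 3.66 and 1.33 CPM in CD8 cells, and its call (adjusted p = 0.0153) was lost without replicate 3 (adjusted p = 0.053). Fasl, the death ligand, went the other way, at 4.68, 9.93, 9.43 and 9.48 CPM in CD4 and 0.105, 0.234, 0.693 and 0.2797 CPM in CD8 cells (log2 -4.76, SE 0.26). Unc13d, which primes granules for release, was at 342, 272, 311 and 304 CPM and 314, 298, 294 and 311 CPM and did not pass the test (adjusted p = 0.921).

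Of 20 killer lectin-like receptor genes, 4 passed the filter on low counts, which a gene could do through the CD8 libraries alone, so the 16 others have no value here. Klrd1 (CD94) was at 9.16, 10.9, 5.54 and 6.55 CPM in CD4 and 138, 83.5, 62.3 and 61.5 CPM in CD8 cells (log2 3.39, SE 0.14). Klrk1 (NKG2D), an activating receptor for stress ligands, was at 0.116, 0.219, 0.197 and 0.255 CPM and 6.26, 4.97, 4.49 and 5.79 CPM (log2 4.76). Klrb1c and Klrb1f changed by 2.69 and 1.90, at levels below 2 CPM in every library. These genes have close paralogs, so their counts depend on how reads that fit several of them were assigned.

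Markers of memory and activated T cells were also higher, with 13 of 16 higher and 0 lower in CD8 cells (median 1.71), and 13 and 1 without replicate 3. The summed level of these markers was 388 to 479 CPM in CD4 and 988 to 1333 CPM in CD8 libraries. Ccl5 and Ifng were counted both here and among the cytotoxic genes, so the lists are not independent. Il2rb, the chain that gives sensitivity to interleukin 2 and 15, was at 8.802, 10.6, 22.9 and 11.5 CPM in CD4 and 149, 201, 208 and 172 CPM in CD8 cells (log2 3.84, SE 0.16). Ly6c2 was at 2.49, 2.12, 8.91 and 2.31 CPM and 195, 111, 225 and 76.03 CPM (log2 5.37, SE 0.24), with the CD8 libraries spread over more than a factor of 2. Cd44, the marker on which cells were gated low, was at 5.69, 8.47, 5.58 and 6.15 CPM in CD4 and 6.08, 7.06, 7.32 and 2.6998 CPM in CD8 cells, and its groups overlapped (adjusted p = 0.476). Markers of natural killer cells summed to 25.5 to 42.5 CPM in CD4 and 121 to 135 CPM in CD8 libraries, with 4 of 6 tested higher (Eomes, Prf1, Klrb1c, Gzma), and several of them are also expressed by CD8+ T cells. Most of this sum came from Prf1 and, in CD8 libraries, also from Eomes, so it is no measure of natural killer cell content. Tyrobp and Fcer1g were not called, and Ncr1, Klre1, Klra8 and Klra4 did not pass the filter on low counts. Whether a minority of memory-like cells within the gate contributed was not tested.

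**Figure D3:**
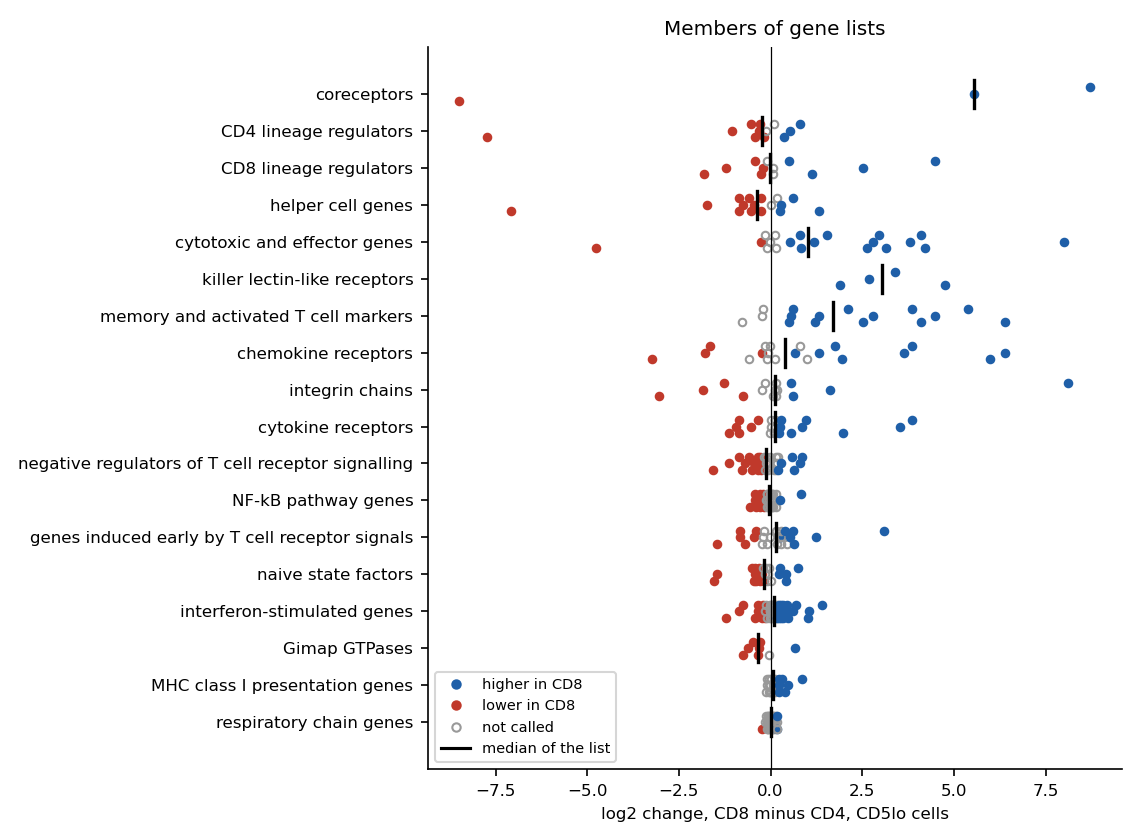
Log2 change between CD8 and CD4 CD5lo cells (horizontal axis) of the tested members of 18 gene lists (rows), 1 point per gene, blue if called higher, red if called lower and open grey if not called, with the list's median as a black bar. Cytotoxic genes and memory markers lie mostly to the right, with medians of 1.01 and 1.71, and the 34 respiratory chain genes lie close to 0.

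Receptors for homing differed in both directions. Of 20 chemokine and related receptors, 8 were higher and 4 lower in CD8 cells (median 0.40; 8 and 3 without replicate 3). Ccr9, which guides cells to the small intestine, was at 47.7, 28.4, 40.6 and 29.2 CPM in CD4 and 519, 416, 415 and 425 CPM in CD8 libraries (log2 3.63, SE 0.10). Cxcr6 was at 1.07, 0.863, 1.04 and 1.25 CPM and 90.6, 57.97, 48.97 and 71.6 CPM (log2 5.97, SE 0.12), and Cxcr3, a receptor for interferon-induced chemokines, at 0.155, 0.0822, 0.512 and 0.153 CPM and 31.6, 19.1, 17.1 and 9.79 CPM (log2 6.38, SE 0.34). Gpr183, an oxysterol receptor that positions lymphocytes in follicles, was higher in CD4 cells, at 88.8, 193, 195 and 162 CPM against 29.1, 49.97, 69.1 and 55.4 CPM (log2 -1.65, SE 0.08). Ccr7, the lymph node homing receptor of naive cells, was at 536, 677, 931 and 699 CPM and 420.4, 664, 1005 and 697 CPM and did not pass the test (adjusted p = 0.556).

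Of 15 integrin chains, 4 were higher and 4 lower (median 0.13), and these counts were the same without replicate 3. Itgb3, the beta chain of the vitronectin receptor, was at 161, 127, 145 and 179.7 CPM in CD4 and 18.8, 13.1, 21.7 and 20.9 CPM in CD8 cells (log2 -3.05, SE 0.09). Itga6 and Itga7, alpha chains of laminin receptors, were lower in CD8 cells by 0.75 and 1.86. Itgb7, the partner of CD103, was at 1057, 827, 999.9 and 1008 CPM in CD4 and 995, 1003, 944 and 1103 CPM in CD8 cells and did not pass the test (adjusted p = 0.551).

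Within the Ly6 family, 2 neighbouring genes of near-identical sequence moved in opposite directions. Ly6c1 was at 132, 139.7, 121 and 101 CPM in CD4 and 1.25, 5.73, 3.34 and 37.4 CPM in CD8 libraries (log2 -4.31, SE 0.72, adjusted p = 0.00172), while Ly6c2 was higher in CD8 cells. CD8 CD5lo replicate 4 had the highest Ly6c1 and the lowest Ly6c2 of the CD8 libraries. The split between the 2 genes is uncertain, as it depends on how reads that fit both copies were assigned. Ly6a (Sca-1) was at 139, 125, 116 and 141 CPM and 46.4, 33.7, 52.3 and 52.6 CPM (log2 -1.51, SE 0.10), and Ly6e, at 687, 537, 765 and 771 CPM and 543, 622, 654 and 666 CPM, did not pass the test (adjusted p = 0.258).

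Of 23 sialyltransferases and enzymes of O-glycans, 10 were higher and 6 lower in CD8 cells (median 0.33; 9 and 5 without replicate 3). St3gal2, which adds sialic acid to galactose, was at 14.5, 11.96, 14.7 and 15.99 CPM in CD4 and 2.49, 2.12, 3.73 and 2.44 CPM in CD8 cells (log2 -2.43, SE 0.12). St8sia1, an enzyme of ganglioside synthesis, fell by 0.77 and Cmah, which makes N-glycolyl sialic acid, rose by 0.73 on the log2 scale.

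Genes of helper cells were mostly on the CD4 side. Of 16 tested, 4 were higher and 10 lower in CD8 cells (median -0.37), 4 and 9 without replicate 3, and 1 and 6 without the block. The 10 included Cd40lg, Cd28, Il4ra, Il6ra, Maf and Tnfrsf4, and the 4 on the CD8 side were Cxcr5, Rora, Il6st and Ifngr1. Il4ra, the interleukin 4 receptor chain, was at 602, 536, 753 and 581 CPM in CD4 and 303, 325, 416 and 309 CPM in CD8 cells (log2 -0.87, SE 0.06). Il6ra was at 267, 259, 327 and 322 CPM and 134, 167, 169.7 and 177 CPM (log2 -0.86, SE 0.07). Icos, a costimulatory receptor of helper cells, was at 27.98, 43.2, 41.9 and 32.9 CPM and 37.6, 42.4, 47.9 and 36.4 CPM and did not pass the test (adjusted p = 0.0868).

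Among 24 cytokine receptor genes, 9 were higher and 6 lower in CD8 cells (median 0.11; 8 and 6 without replicate 3). Il12rb1, a chain of the interleukin 12 and 23 receptors, was at 4.47, 3.699, 4.41 and 3.71 CPM in CD4 and 16.6, 18.3, 15.7 and 13.9 CPM in CD8 cells (log2 1.99, SE 0.10). Its signal transducer Stat4 also rose, by 1.08 (SE 0.07), from 56.7, 66.04, 51.6 and 58.1 CPM to 136, 128, 116 and 109.8 CPM. Tgfbr3 was lower in CD8 cells by 1.14 (SE 0.05). Il2rg, the common gamma chain, was at 863, 784, 789 and 837 CPM and 892, 851, 851 and 930.4 CPM and did not pass the test (adjusted p = 0.133). Cish, a feedback inhibitor of cytokine signals, was at 13.5, 10.1, 16.96 and 11.9 CPM in CD4 and 6.33, 5.797, 8.34 and 7.28 CPM in CD8 cells (log2 -0.90, SE 0.09). Of 19 STAT, JAK and SOCS genes, 5 were higher and 3 lower.

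Of 19 costimulatory receptors, 7 were higher and 6 lower in CD8 cells (median 0.14; 7 and 5 without replicate 3). Cd226 and Cd96, which share ligands of the nectin family, changed by 1.66 and 0.60, and Cd160 was at 1.61, 2.56, 1.72 and 1.81 CPM in CD4 and 28.1, 22.9, 21.8 and 21.7 CPM in CD8 cells (log2 3.62, SE 0.14). Tnfrsf25 (DR3) was at 108, 92.4, 88.97 and 84.3 CPM and 31.7, 25.7, 29.3 and 24.6 CPM (log2 -1.74, SE 0.06).

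Differences in the T cell receptor complex and its proximal kinases were small in size. Of 23 genes, 7 were higher and 6 lower, with log2 changes from -0.44 to 0.72 and a median of -0.03, and without replicate 3 the counts were 3 and 3. Lck was at 1509, 1287, 1268 and 1306 CPM in CD4 and 1483, 1297, 1233 and 1357 CPM in CD8 cells (log2 0.0028, SE 0.05, adjusted p = 0.975). Cd247, the zeta chain, was at 546, 496, 494 and 509.9 CPM and 399.7, 363, 365 and 396 CPM (log2 -0.42, SE 0.05). Of its exonic bases, 56.4% lie within exons of Pou2f1, so its count depends on how reads in shared exons were assigned. The kinase Tec was at 17.9, 17.7, 17 and 15.5 CPM and 33.4, 26.1, 27.6 and 25.7 CPM (log2 0.72, SE 0.07), and Themis, which tunes receptor signals in thymocytes, rose by 0.51 (SE 0.06).

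Among 33 negative regulators of T cell receptor signalling, 14 were lower and 6 higher in CD8 cells (median -0.12; 11 and 6 without replicate 3, 8 and 4 without the block). Cd5 itself was at 276, 239, 268 and 239 CPM in CD4 and 195, 202, 215 and 186 CPM in CD8 libraries (log2 -0.35, SE 0.06, adjusted p = 0.00125), and its groups did not overlap. The cells were sorted on the protein of this gene with gates set within each lineage. The change of Cd5 therefore cannot be told apart from the placing of the gates. Cd6, a relative of Cd5, was at 367, 331, 395 and 342 CPM and 326, 349, 363 and 324 CPM and did not pass the test (adjusted p = 0.376). Dusp5, a nuclear phosphatase of ERK, was at 27.2, 87.03, 166 and 80.3 CPM in CD4 and 7.87, 31.8, 56.1 and 27.4 CPM in CD8 cells (log2 -1.58, SE 0.06, adjusted p = 3.08e-07). The groups of Dusp5 overlapped, and its call was lost without the block (adjusted p = 0.112). On the CD8 side, Ptpn22, a phosphatase that restrains Lck and Zap70, was at 162, 178, 152 and 153 CPM and 263, 258, 242 and 240.2 CPM (log2 0.64, SE 0.05), and the adaptors Lax1 and Sla2 rose by 0.57 and 0.87. Csk, at 619, 479, 557 and 575 CPM and 483, 481, 468 and 531 CPM, did not pass the test (adjusted p = 0.072).

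NF-kB is a family of transcription factors released from inhibitors such as IkB-alpha after receptor signals, and the study's title concerns its basal activity. Of 33 NF-kB pathway genes tested, 2 were higher (Traf1, Nfkbie) and 10 lower in CD8 cells (median -0.03), and without replicate 3 they were 2 and 6. Without the block 1 was higher and 3 were lower. Nfkbia (IkB-alpha) was at 316, 361, 487 and 241 CPM in CD4 and 260.4, 399.7, 446 and 293 CPM in CD8 libraries (log2 0.01, SE 0.09, adjusted p = 0.959). Nfkb1 was at 299, 267, 304 and 302 CPM and 253, 274, 276 and 288 CPM (log2 -0.10, SE 0.06, adjusted p = 0.224). Neither gene's groups were apart. Traf1, an adaptor of TNF receptors, was at 121, 84.96, 95.2 and 122 CPM and 205, 166, 163 and 211 CPM (log2 0.83, SE 0.05). Traf5 and Nfkbiz were lower in CD8 cells by 0.56 and 0.43, and Birc3, an inhibitor of apoptosis, by 0.37 with overlapping groups.

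Early response genes of T cell receptor signalling show how the replicates pair. Nr4a1 (Nur77), an orphan nuclear receptor, was at 284, 812, 927 and 498 CPM in CD4 replicates 1 to 4 and at 96.4, 304, 319 and 195 CPM in the CD8 replicates (log2 -1.46, SE 0.06, adjusted p = 2.51e-07; 0.0401 without the block). Its relative Nr4a2 went the other way in every pair, at 3.41, 12.4, 22.4 and 10.7 CPM and 10.3, 32.1, 46.01 and 21.1 CPM (log2 1.23, SE 0.10, adjusted p = 2.44e-05; 0.192 without the block). For both genes, and for Dusp5 and Tagap, the order of the replicates was 1, 4, 2, 3 from low to high in each lineage. Tagap, an activator of GTP hydrolysis in T cells, was at 237, 424, 448 and 285 CPM and 350.5, 609, 693 and 468 CPM (log2 0.61, SE 0.05; adjusted p = 0.133 without the block). Of the 24 genes of this list, 7 were higher and 6 lower in CD8 cells (median 0.16; 6 and 6 without replicate 3, 3 and 4 without the block). Fos was at 1117, 589, 631 and 353 CPM and 948, 864, 745 and 529 CPM and did not pass the test (adjusted p = 0.103).

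These genes also respond to cell handling. Of 22 handling stress genes, 2 were higher and 11 lower in CD8 cells (median -0.23; 1 and 6 without the block), and their summed level was 11448 to 15128 CPM in CD4 and 9608 to 11745 CPM in CD8 libraries. The heat shock gene Hspa1a was at 399.6, 206, 61.1 and 231 CPM in CD4 and 285, 123, 41.3 and 135 CPM in CD8 libraries (log2 -0.64, SE 0.06, adjusted p = 6.4e-05; 0.564 without the block). Its near-identical copy Hspa1b was at 697, 319.7, 116 and 412 CPM and 521, 227, 72.7 and 257 CPM, and replicate 1 was highest and replicate 3 lowest in both lineages. The part of handling in the lower level of Nr4a1, Junb and Egr1 in CD8 cells was not tested.

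**Figure D4:**
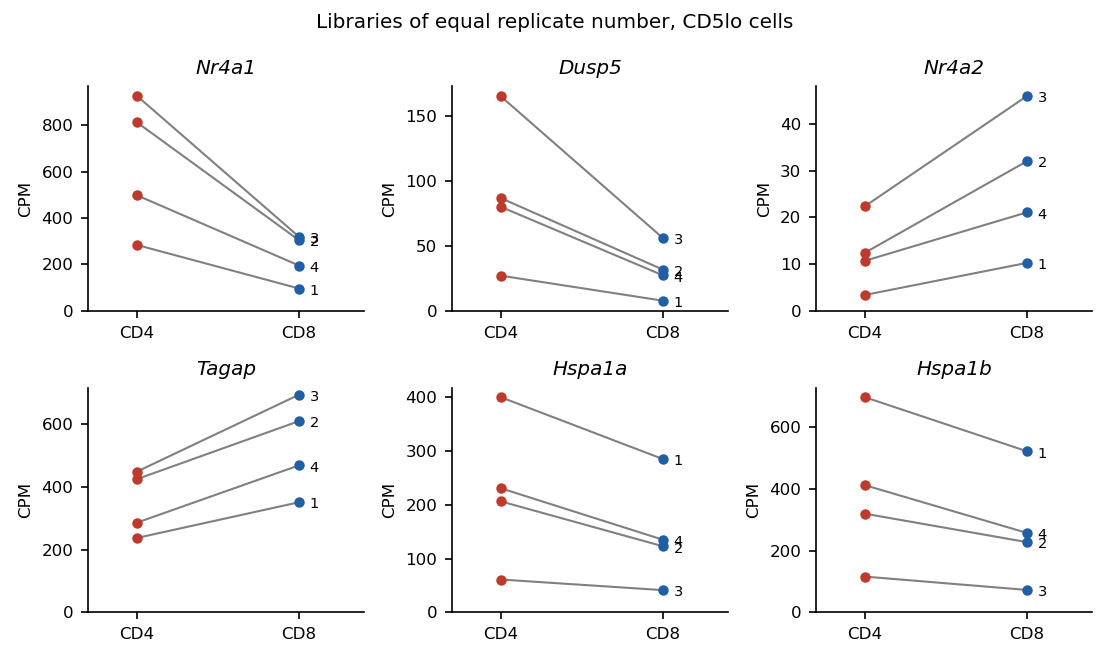
Level in CPM (vertical axes, from 0) of 6 genes in CD4 CD5lo (red) and CD8 CD5lo (blue) libraries, with lines joining libraries of equal replicate number (numbers at right). Lines run in the same direction in all 4 pairs of each gene although the CD4 and CD8 values overlap, as for Hspa1a, which ran from 61.1 to 399.6 CPM in CD4 and from 41.3 to 285 CPM in CD8 libraries.

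Of 24 factors of the naive state, 12 were lower and 5 higher in CD8 cells (median -0.19; 8 and 5 without replicate 3, 7 and 2 without the block). Igfbp4, an insulin-like growth factor binding protein typical of naive CD4+ cells, was at 925, 834, 1108 and 943 CPM in CD4 and 246, 334, 373 and 371 CPM in CD8 cells (log2 -1.53, SE 0.10). Dapl1 was at 53.8, 44.4, 50.4 and 44.04 CPM and 93.2, 68.3, 84.4 and 75.2 CPM (log2 0.73, SE 0.05). Slfn2, a guard of quiescence, fell by 0.51. The lower ones also included Tcf7, Lef1, Foxo1, Bach2 and Satb1, and the higher ones Klf2, Klf3 and Id3.

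Interferon-stimulated genes were split. Of 48, 18 were higher and 10 lower in CD8 cells (median 0.08), 11 and 9 without replicate 3, and 10 and 4 without the block. Mx1, an antiviral GTPase, was at 20.3, 22.9, 27.7 and 10.5 CPM in CD4 and 56.9, 49.4, 72.8 and 32.1 CPM in CD8 cells (log2 1.4, SE 0.08), and Oas3 at 50.6, 44.2, 68.8 and 38.3 CPM and 95.4, 101, 129.5 and 84.6 CPM (log2 1.04, SE 0.06). Guanylate-binding proteins were on the CD8 side (Gbp2, Gbp3, Gbp6, Gbp7, Gbp8 and Gbp9), with Gbp3 at 1.01. Ifit2 went the other way, at 69.99, 81.4, 66.9 and 82.5 CPM and 39.3, 40.4, 39.9 and 43.9 CPM (log2 -0.87, SE 0.06).

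Of the 8 Gimap GTPases, which support lymphocyte survival and lie in 1 gene cluster, 6 were lower and 1 higher in CD8 cells (median -0.33), and the counts were the same without replicate 3. Gimap6 was at 852, 1264, 1383 and 899 CPM in CD4 and 591, 640.04, 809 and 523 CPM in CD8 cells (log2 -0.76, SE 0.07), and Gimap5, the exception, at 70.8, 64.7, 65.2 and 69.8 CPM and 120.4, 98.4, 102 and 107 CPM (log2 0.66, SE 0.05). Gimap7 was at 46.3, 42.7, 36.7 and 52.4 CPM and 49.8, 35.3, 39.02 and 47.3 CPM (adjusted p = 0.618).

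Of 21 MHC class I presentation genes, 7 were higher and 0 lower in CD8 cells (median 0.06; 6 and 0 without replicate 3). The regulator Nlrc5 was at 531, 496, 479 and 517 CPM and 700.2, 693, 683 and 729 CPM (log2 0.48, SE 0.05), and Tapbpl, a peptide editor, at 89.99, 69.4, 71.9 and 89.02 CPM and 149, 141, 124 and 161 CPM (log2 0.85, SE 0.06). The heavy chain gene H2-K1 was at 4789, 4354, 4595 and 4481 CPM and 4389.6, 3976, 3953 and 4423 CPM and did not pass the test (adjusted p = 0.137).

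Among 17 BCL2 family genes, 4 that promote cell death were higher in CD8 cells: Pmaip1, Bid, Bmf and Bak1. Bmf was at 5.33, 5.11, 6.897 and 6.497 CPM in CD4 and 21.01, 21.1, 20.6 and 13.3 CPM in CD8 cells (log2 1.66, SE 0.16), and Bid at 19.9, 19.96, 16.4 and 17.7 CPM and 35.4, 35.6, 32.9 and 37.8 CPM (log2 0.94, SE 0.06), with 17.7% of its exonic bases shared with Bcl2l13. Bcl2l1 (Bcl-xL), which protects cells, was lower by 0.50, and Mcl1 and the death-promoting Bbc3 were also called lower. Bcl2 was at 112, 151, 144 and 131 CPM and 117, 149.8, 144 and 146 CPM and did not pass the test (adjusted p = 0.465). The median of the list was 0.05.

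Ion channels separated the lineages in both directions. Of 15 potassium and TRPM channel genes, 6 were higher and 4 lower (median 0.16; 5 and 4 without replicate 3). Kcna2 was at 6.56, 5.23, 5.82 and 8.904 CPM in CD4 and 101, 105, 82.7 and 120.05 CPM in CD8 cells (log2 3.96, SE 0.10), and Kcna3, the main voltage-gated potassium channel of T cells, at 20.004, 18.2, 21.7 and 23.2 CPM and 43.2, 50.3, 47.3 and 54.8 CPM (log2 1.24, SE 0.07). Trpm1 was at 0.439, 1.04, 1.01 and 0.484 CPM and 9.92, 11.4, 9.91 and 10.8 CPM (log2 3.86, SE 0.21). In the calcium and NFAT list, where 6 of 22 were higher and 7 lower (6 and 3 without replicate 3, 5 and 1 without the block), the calcium pump gene Atp2b4 was at 2.401, 1.84, 1.43 and 2.41 CPM and 13.8, 12.7, 10.2 and 14.5 CPM (log2 2.68, SE 0.09), and the calcineurin regulator Rcan3 fell by 0.95.

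Respiratory chain genes were mostly not called. Of 34 respiratory chain genes, 2 were higher and 1 lower, with log2 changes between -0.23 and 0.19, and without the block 0 were called. Of 20 glycolytic genes, 5 were higher and 7 lower (median -0.03): Ldhb, a lactate dehydrogenase, was at 40.05, 44.5, 41.8 and 34.7 CPM in CD4 and 12.8, 14.3, 13.7 and 9.55 CPM in CD8 cells (log2 -1.68, SE 0.07), while Gapdh was at 435, 396, 439 and 365 CPM and 397, 388, 401 and 379 CPM (adjusted p = 0.464). Of 13 annexins and S100 genes, 8 were higher and 1 lower (median 0.34; 6 and 2 without replicate 3), with S100a11 at 19.3, 17.2, 17.8 and 20.3 CPM and 49.2, 43.9, 44.8 and 49.9 CPM (log2 1.33, SE 0.05).

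Of 25 cell cycle genes, 13 were higher and 3 lower in CD8 cells (median 0.45), 9 and 3 without replicate 3, and 2 and 1 without the block. Mcm6, part of the replicative helicase, was at 62.4, 64.4, 60.4 and 60.7 CPM in CD4 and 91.04, 93.95, 91.1 and 88.9 CPM in CD8 cells (log2 0.56, SE 0.05). Mki67 was at 4.97, 7.07, 7.88 and 4.31 CPM and 9.799, 14.4, 15.2 and 4.22 CPM, with pair 4 against the other 3 and overlapping groups (log2 0.76, adjusted p = 0.0073; 0.149 without the block). Stmn1, a microtubule-destabilising protein, was lower in CD8 cells, at 15.1, 11.7, 13.1 and 16.5 CPM against 5.18, 6.16, 7.32 and 4.03 CPM (log2 -1.33, SE 0.18).

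Of 16 genes of regulatory T cells, 4 were higher and 8 lower in CD8 cells (median -0.31; 4 and 7 without replicate 3). Foxp3, which defines these cells, was at 4.04, 4.01, 5.99 and 5.85 CPM in CD4 and 1.45, 1.69, 4.14 and 1.59 CPM in CD8 libraries (log2 -1.26, SE 0.20), with CD8 replicate 3 the highest CD8 value, and 12.9% of its exonic bases are shared with Ccdc22. Il2ra, the CD25 chain excluded by the gate, was at 2.17, 1.71, 3.43 and 2.62 CPM and 0.8286, 0.853, 3.08 and 1.03 CPM (log2 -0.94, adjusted p = 0.0101; 0.288 without the block). Ikzf2 (Helios) was on the CD8 side, at 1.01, 1.44, 2.15 and 0.586 CPM and 15.1, 17.2, 19.1 and 8.67 CPM (log2 3.59, SE 0.14), as were Itgae, Nt5e and Entpd1. Among 12 thymocyte genes, 6 were higher and 4 lower.

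Markers of other cell types were measured as well. The B cell gene Cd74, an MHC class II chaperone, was at 12.2, 10.7, 136 and 7.46 CPM in CD4 and 8.299, 16.5, 191 and 5.35 CPM in CD8 libraries (adjusted p = 0.83). Of 17 B cell markers, 5 were called higher in CD8 cells and 0 lower, and without replicate 3 the calls were 2 of 16. Cd79b, a chain of the B cell receptor complex, was at 1.59, 1.56, 11.2 and 0.917 CPM in CD4 and 22.6, 19.9, 31.7 and 19.98 CPM in CD8 libraries, and its change was 3.97 without replicate 3 (adjusted p = 7.05e-08). Myeloid and dendritic cell markers summed to 217 to 255 CPM in CD4 and 194 to 232 CPM in CD8 libraries, with 3 of 12 higher and 3 lower. Most of this sum came from Ctss (means of 161 CPM in CD4 and 126 CPM in CD8 libraries) and Bst2 (53.2 and 58.8 CPM). Of stromal and endothelial markers, 2 of 4 tested were higher (Col1a1, Col1a2) and 2 lower (Pecam1, Cdh5). The summed level of the list was 232 to 262 CPM in CD4 and 145 to 170.4 CPM in CD8 libraries. Cdh5, Col1a1 and Col1a2 had means of 1.21, 0.405 and 0.0949 CPM in CD4 and 0.569, 1.46 and 0.441 CPM in CD8 libraries. The sum was thus mainly that of Pecam1 and is no measure of stromal content. Of natural killer T and gamma-delta T cell markers, 1 of 3 tested was higher and 1 lower, and their sum was highest in replicate 3, at 8.03 CPM in CD4 and 11.2 CPM in CD8 cells. Of the erythroid and platelet markers, 1 of 8 was tested and did not pass. At 0 in all 8 libraries were 6 of the 8 erythroid and platelet, 2 of the 10 stromal and endothelial and 1 of the 10 natural killer cell markers. The part of other cells in the results was not tested.

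Genes next to each other on a chromosome often differed together. Of 12554 pairs of neighbouring tested genes, 1649 had both genes called, and 64.0% of these differed in the same direction, against 55.6% with the same sign among all neighbouring pairs. The latter include pairs with uncalled genes, so the shares are of unlike sets. Some neighbours overlap, as Zbtb7b and Gm15417 do, and a gene counts in the pair on each side, so the pairs are not independent. When both neighbours changed at least 4-fold, 38 of 47 pairs went the same way. Cd8a and Cd8b1 are one such pair, 35932 bases apart. Gpr162, 708 bases from Cd4, was at 1.23, 1.34, 1.08 and 1.32 CPM in CD4 and 0, 0, 0.222 and 0.04302 CPM in CD8 libraries. On the side of Zbtb7b lie Dcst1, Adam15 and Efna4, with log2 changes of -3.90, -3.63 and -3.62, and the first of them was at 2.36, 1.84, 2.89 and 2.28 CPM in CD4 and 0.197, 0.187, 0.125 and 0.108 CPM in CD8 cells. Beside Nkg7, Cldnd2 was at 0.0516, 0.0548, 0.0263 and 0.05095 CPM and 3.604, 2.44, 2.41 and 3.85 CPM (log2 6.02, SE 0.23), and beside Itgae, P2rx5 was at 0.181, 0.0548, 0.236 and 0.255 CPM and 1.51, 2.396, 2.31 and 1.88 CPM. The genes of this paragraph outside the ranked ones were chosen after their values were seen. Whether the counting used strand is unknown here, and the part of reads that run on from a strongly expressed neighbour was not tested.

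The difference between the lineages was then compared with that at high CD5, as an interaction over all 16 libraries. The CD5 gates were set within each lineage, so the step from low to high CD5 need not be equal in both. Mean Cd5 RNA was 255 CPM at low and 1382 CPM at high CD5 in CD4 cells, and 200 and 499 CPM in CD8 cells. An interaction cannot be told apart from an effect of this unequal step. The value of CD8 minus CD4 was larger at high than at low CD5 for 205 of 13554 genes (1.51%) and smaller for 174 (1.28%), against 24 and 18 without the block. With the 3 libraries rich in B cell markers left out (replicate 3 of both CD5lo groups and CD8 CD5hi replicate 4), they were 305 and 197. Leaving out replicate 1, 2 or 3 of all groups brought them to 68 and 64, 54 and 48, or 68 and 53. Of the 4427 genes called at low CD5, 273 (6.17%) had a called interaction: 163 had the same sign and a larger size at high CD5, 72 the same sign and a smaller size, and 38 the opposite sign.

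Cd8b1 had the same direction and a larger difference at high CD5 (interaction 1.35, SE 0.09, adjusted p = 1.33e-05; 1.6e-05 without the block), with means of 7.97 ± 0.449 CPM in CD4 and 965 ± 63.4 CPM in CD8 CD5hi cells (SD, n = 4, as in the other means here). Tbx21 had a mean of 14.4 ± 3.99 CPM in CD8 CD5hi and 0.291 ± 0.156 CPM in CD4 CD5hi cells, against 2.12 ± 0.966 and 0.387 ± 0.282 CPM at low CD5 (interaction 3.22, adjusted p = 0.00137; 0.0549 without the block). Plac8 (interaction 3.22) and Myo1f (1.80) also had larger differences, with Plac8 losing its call without the block (adjusted p = 0.128). Dropping replicate 3 of both CD5lo groups and CD8 CD5hi replicate 4 brought Plac8 to 2.09 and Myo1f to 1.53, both still called. Among CD4 CD5lo libraries, Plac8 was at 3.42 CPM in replicate 3 and at 0.2802 to 0.575 CPM in the others, so the size of 3.22 depended partly on these libraries. Among cell cycle genes, 14 of 25 had a larger and 0 a smaller value of CD8 minus CD4 at high CD5, all by the paired fit. Mki67 had a mean of 10.2 ± 4.13 CPM in CD4 and 59.1 ± 29.96 CPM in CD8 CD5hi cells (interaction 1.69, adjusted p = 0.00635; 0.411 without the block), and Stmn1 had the opposite sign at high CD5, with 18.9 ± 1.602 CPM in CD4 and 31.2 ± 12.7 CPM in CD8 cells (interaction 2.00, adjusted p = 0.0079). The difference of Stmn1 at high CD5 had no test of its own. When each replicate was left out in turn, Mki67 and Stmn1 each kept the interaction call in 2 of 4 runs.

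Genes with a smaller or more negative value at high CD5 included Cd5, on whose protein the cells were sorted, with 1382 ± 27.9 CPM in CD4 and 499 ± 41.4 CPM in CD8 CD5hi cells (interaction -1.13, SE 0.09, adjusted p = 3.91e-05; 3.1e-05 without the block). Izumo1r (folate receptor 4), a surface protein of regulatory and anergic CD4+ cells, had means of 261 ± 36.7 and 65.8 ± 9.96 CPM at high CD5 against 48.8 ± 7.79 and 32.5 ± 4.96 CPM (SD, n = 4) at low CD5 (interaction -1.42, adjusted p = 0.000143). Nt5e (CD73), an enzyme that makes adenosine, had means of 18.3 ± 2.803 CPM in CD4 and 23.9 ± 2.62 CPM in CD8 CD5hi cells, against 4.32 ± 1.15 and 15.1 ± 1.29 CPM at low CD5 (interaction -1.44, adjusted p = 0.000578; 0.0172 without the block). Il2rb had means of 50.5 ± 8.93 and 296 ± 48.5 CPM, a smaller difference than at low CD5 (interaction -1.27, adjusted p = 0.00394; 0.162 without the block). With Izumo1r and Nt5e, the 6 most negative interactions among called genes of at least 5 CPM were those of Osgin1, Itga7, Trpm1 and P2rx7, at -2.02, -1.48, -1.39 and -1.27. Among all genes taken by the naming rule, including Anxa2, Gpr83 and Mcm5, which are not reported here, 33 were called both at low CD5 and in the interaction. Of these 33, 8 kept the interaction call without the block and 29 when the 3 libraries with much B cell RNA were left out. When each replicate was left out in turn, 8 kept the call in every run.

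**Figure D5:**
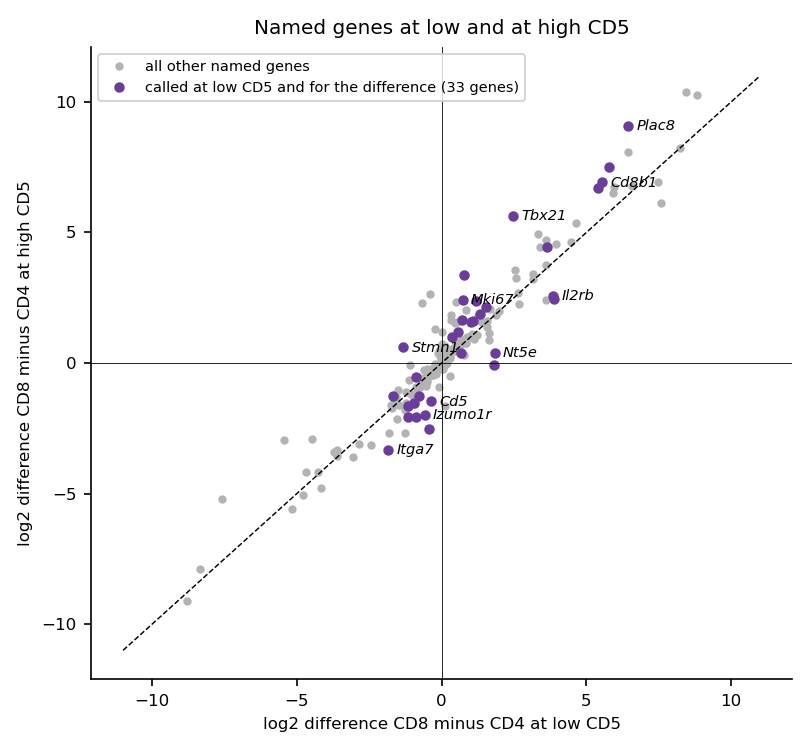
Difference of mean log2 CPM between CD8 and CD4 cells at high CD5 (vertical axis) against that at low CD5 (horizontal axis), 1 point per gene. All genes taken by the naming rule are shown, also the few not reported in the text. The 33 genes called both at low CD5 and in the interaction are in purple, and the line of equality is dashed. Plac8, Tbx21 and Cd8b1 lie above the line, Il2rb and Nt5e below it on the positive side, and Stmn1 has opposite signs.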

How the data were processed

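RNA of naive T cells was sequenced in 16 libraries, 8 of which are compared here. The table holds raw gene counts deposited by the authors, 1 column per sample. STAR 2.5.2a, featureCounts 1.4.6-p3, DESeq2 and build mm10 are named per the submitters' processing notes. The labels name both a TruSeq RNA v2 and a stranded TruSeq kit, but the kit used for each library is not named, nor whether counting used strand. Columns were matched to samples by name.

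Counts were filtered with filterByExpr (minimum count 10, minimum total 15) and scaled by TMM in edgeR 4.0.16 (R 4.3.3). The quasi-likelihood F test compared CD8 with CD4 with the replicate number as a block, and p-values were adjusted over all genes tested (Benjamini-Hochberg, threshold 0.05). DESeq2 1.42.0 and limma 3.58.1 (voom), other filters, scalings and left-out libraries were alternatives. The scripts were tested on simulated data.

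Replicates of equal number deviated together: after removal of group means, their correlations were 0.52, 0.24, 0.71 and 0.58 for pairs 1 to 4, against -0.51 to 0.18 between different numbers. The pairing therefore comes from the numbers in the labels and this check, and what a number stands for is not given. Where nothing ties libraries to separate animals, p-values measure only the spread among these samples. In the paired fit this is the spread left after differences shared by libraries of equal replicate number are removed. No 2 libraries of a group agreed within sampling noise (chi-square per gene 30.1 to 124).

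Named genes were the 12 largest changes each way among called genes of at least 5 CPM without overlap, up to 4 called and 2 uncalled members of each list, 16 genes always named, and the 6 largest interactions each way. A few genes that this rule or a list names are not reported here. Predicted genes, clone names, 20 names turned into dates and receptor segments were left out of the ranking. Members and lists were chosen with earlier results of these data known. Genes named in a list's count without values, and the neighbours of ranked genes, fall outside that rule and were chosen after their values were seen. Positions are those of GENCODE vM21 (GRCm38).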

Additional observations from a re-analysis of the deposited data

Results flagged for a closer look

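In 26 of 276 groups of 4 libraries (9.42%), 1 library stood far from the other 3 by Dixon's test at the 95% level, which chance gives in about 1 of 20 groups. Replicate 3 was the library that stood apart in 8 groups of CD4 CD5lo and 8 of CD8 CD5lo, the pair with B cell RNA. In CD4 CD5lo replicate 3 the high values were those of Cd74 (136 against 7.46 to 12.2 CPM), Cd79b (11.2 against 0.917 to 1.59 CPM), Cxcr3 (0.512 against 0.0822 to 0.155 CPM), Haao (3.26 against 0.603 to 0.658 CPM), Ly6c2 (8.91 against 2.12 to 2.49 CPM), Myb (35.4 against 22.8 to 24.6 CPM), Nkg7 (3.86 against 0.301 to 0.739 CPM) and Plac8 (3.42 against 0.2802 to 0.575 CPM). In CD8 CD5lo replicate 3 they were those of Adam15 (3.01 against 2.22 to 2.29 CPM), Cd4 (27.1 against 0.566 to 2.501 CPM), Cd40lg (2.702 against 0.224 to 0.432 CPM), Cd74 (191 against 5.35 to 16.5 CPM), Foxp3 (4.14 against 1.45 to 1.69 CPM), Il2ra (3.08 against 0.8286 to 1.03 CPM), Nav2 (2.11 against 0.624 to 0.771 CPM) and Zbtb7b (6.82 against 0.323 to 1.08 CPM).

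Other libraries stood apart for a few genes. CD4 CD5lo replicate 1 had the lowest value of Fasl (4.68 against 9.43 to 9.93 CPM) and Itga6 (181 against 201 to 204 CPM). CD4 CD5lo replicate 1 had the highest value of Lck (1509 against 1268 to 1306 CPM). CD4 CD5lo replicate 2 had the lowest value of Nfkb1 (267 against 299 to 304 CPM). CD8 CD5lo replicate 1 had the lowest value of Runx3 (139.6 against 187 to 196 CPM). CD8 CD5lo replicate 1 had the highest value of Ccr9 (519 against 415 to 425 CPM) and Ctsw (633 against 479.6 to 493 CPM). CD8 CD5lo replicate 4 had the lowest value of Bmf (13.3 against 20.6 to 21.1 CPM) and Cdh5 (0.323 against 0.631 to 0.693 CPM). CD8 CD5lo replicate 4 had the highest value of Ly6c1 (37.4 against 1.25 to 5.73 CPM). The part of single libraries in these values was not tested.

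For 33 of the genes reported in this text, the CD8 minus CD4 difference itself differed between high and low CD5 (interaction in the edgeR quasi-likelihood test over all 16 libraries with the replicate block). Of these, 30 were also called at low CD5, so this set is not the 33 genes counted above. On the log2 scale, high minus low CD5, the value was positive for Plac8 3.22, Tbx21 3.22, Gzma 2.67, Stmn1 2.00, Myo1f 1.80, Mki67 1.69, Ly6c2 1.37, Cd8b1 1.35, Tec 0.93, Ccr9 0.77, Mcm6 0.64, Prf1 0.60, Gbp3 0.56, Stat4 0.51, S100a11 0.51, Ly6e 0.51, Ldhb 0.39, Il4ra 0.33 and Gapdh 0.33. It was negative for Osgin1 -2.02, Col1a1 -1.87, Itga7 -1.48, Nt5e -1.44, Izumo1r -1.42, Trpm1 -1.39, P2rx7 -1.27, Il2rb -1.27, Cd5 -1.13, Cd6 -0.87, Rcan3 -0.58, St8sia1 -0.51, Tgfbr3 -0.50 and Gimap5 -0.30. Without the block, 9 of the 33 kept the call.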

How the results depend on the processing

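The paired comparison gave 2185 genes higher and 2242 lower in CD8 cells. The replicate block was the choice that moved these counts most: without it they were 1228 and 1186, over all 16 libraries without it 1359 and 1279, and without it and without replicate 3 they were 1036 and 870. Of the 4427 calls, 2413 were called again in the same direction without the block and 0 in the opposite direction. With all 16 libraries and the block, another scaling (RLE), other filters, DESeq2, limma voom or counts divided by 2, the counts stayed between 2025 and 2266 higher and between 2075 and 2239 lower. Leaving out each pair of libraries in turn gave 1542 to 2632 higher and 1529 to 2614 lower genes. The interaction with CD5 rested more on single choices: its 205 larger and 174 smaller values were 24 and 18 without the block and 523 and 371 with DESeq2. Leaving out each replicate in turn gave 54 to 189 and 48 to 112. No gene called in one direction was called in the other under any alternative run. With 4 pairs the paired fit has 3 residual degrees of freedom. Counts divided by 2 gave 2239 higher and 2143 lower genes. This division nearly keeps the ratios between libraries and is no thinning of reads, so it cannot show how depth acts on the calls. Genes under the minimum count were not tested.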
